A study of Mus musculus with 10 samples.

Results

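The vehicle group of this study, 5 of its 10 libraries, gives a description of the adult mouse retina across 35275 genes. The members were chosen by their treatment label, vehicle, and not by any measured value; their titles call the same libraries untreated, and the labels do not say what the vehicle was. RNA came from retinas of C57BL/6 mice aged 10 to 12 weeks, and the series describes osmotic pumps placed under the skin for 11 days in the animals given vigabatrin, a drug that inhibits GABA transaminase. No vigabatrin library enters any value here. The labels do not say whether each library is a separate animal, whether 1 or both eyes were used, or whether animals were pooled, so the spread given below is a spread between libraries.

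The retina turns light into nerve signals in layers. Rods and cones hold a visual pigment in a stack of membranes called the outer segment; light makes the pigment activate the G protein transducin, transducin activates a phosphodiesterase, cyclic GMP falls and cation channels close. Photoreceptors then release less glutamate onto bipolar and horizontal cells, amacrine cells shape the signal with GABA or glycine, ganglion cells send it to the brain, and Muller glia span all layers and take up glutamate. The mouse retina is known for being dominated by rods. RNA from whole retinas carries every cell class in proportion to its cell number and its RNA content, and in such bulk samples fewer cells and less RNA per cell cannot be told apart.

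Totals ran from 36056135 counts (library 2345) to 52181425 counts (library 832), so that 1 count was worth 0.0192 to 0.0277 CPM, counts scaled to a total of 1000000 counts. CPM divides by the library total and is used here to follow a gene from library to library, whereas TPM also divides by gene length before scaling and is used to compare genes. Libraries are named by the number in their title, and lists of 5 values stand in the order 832, 835, 1580, 1582, 2345. Libraries 835 and 1582 stood apart, because transcripts of a 25-gene lens list took 0.00654%, 2.18%, 0.0187%, 1.48% and 0.0613% of counts. Library 835 also stood apart on its own: 1916 genes (13.0% of the 14708 with a mean of at least 1 CPM) lay over 1.5-fold from the mean of the other 4 libraries. The same count was 765 (5.20%) for 832, 713 (4.85%) for 1580, 450 (3.06%) for 1582 and 770 (5.24%) for 2345. Several values that rest on 835 and 1582 are therefore given with and without them, the latter from 832, 1580 and 2345.

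In all, 15874 genes (45.0%) reached a mean of 1 TPM and 10222 had no count in any of the 5 libraries. Reads were concentrated in few genes. The 76 genes with a mean of at least 1000 TPM held 25.05% of TPM and 17.9% of counts, and the 1798 genes between 100 and 1000 TPM held a further 40.0% of TPM. In each library between 982 and 1014 genes were enough for 50% of the counts. Of the 76 most abundant genes, 9 were rod genes and 11 were genes shared by rods and cones, together with 7 genes of the mitochondrial genome, 6 of glycolysis, 5 of the lens and 2 of Muller glia, while 35 belonged to no list used here. The 5 lens genes rest on 835 and 1582: they held 1.71% of TPM over 5 libraries and 0.0619% without these 2, where 73 genes reached 1000 TPM, 0 of them from the lens list, and held 24.1% of TPM.

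Rod genes were among the most abundant transcripts of the retina. Gnat1, the alpha subunit of rod transducin, stood at 14600 ± 1280 TPM (SD, n = 5), and Sag, the rod arrestin that ends the light response, at 2472 ± 139 TPM. Gnat1 (ENSMUSG00000034837, chr9:107674477-107679592) measured 11390, 9923, 11440, 10447 and 11212 CPM, with the lens-rich libraries 835 and 1582 below the other 3. Sag (ENSMUSG00000056055, chr1:87803680-87845158) measured 4250, 3920, 3910, 3947 and 3746 CPM. Here 832 was highest and 2345 lowest, and 835 and 1582 lay between them.

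All 14 members of the rod list were detected at 1 TPM or more. Their summed share was 6.58%, 6.24%, 6.69%, 6.10% and 6.60% of counts, or 6.44% ± 0.258 (SD, n = 5), and 6.62% ± 0.0545 in the 3 lens-poor libraries. Within the list the levels in TPM fell steeply from Gnat1 to a group of similar genes. That group held Sag at 2472 ± 139 TPM, Nrl, the transcription factor that specifies rods, at 2022 ± 228 TPM, Pde6a, a catalytic phosphodiesterase subunit, at 1939 ± 135 TPM, Reep6, a membrane-shaping protein of rods, at 1902 ± 136 TPM and the inhibitory subunit Pde6g at 1881 ± 189 TPM. The intervals of 1 SD of Nrl, Pde6a, Reep6 and Pde6g overlap, and their order within each library was not compared, so no order is given for them. The lowest member was Esrrb, an orphan nuclear receptor, at 460 ± 34.1 TPM.

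Genes that rods and cones share build and maintain the outer segment and regulate cyclic GMP. All 29 were detected, and together they took 3.68% ± 0.198 of counts (SD, n = 5) and 3.82% ± 0.00496 in the 3 lens-poor libraries. Prph2 and Rom1, the paired tetraspanins of the disc rim, stood at 5860 ± 520 and 3914 ± 298 TPM. Rbp3, the retinoid carrier of the matrix between photoreceptors and pigment epithelium, stood at 3741 ± 326 TPM, and Unc119, a carrier of lipid-modified proteins, at 3170 ± 224 TPM. The 2 guanylate cyclase genes were far apart, at 384 ± 65.5 TPM for Gucy2e and 57.4 ± 6.94 TPM for Gucy2f, the lowest of the list.

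**Figure D1:**
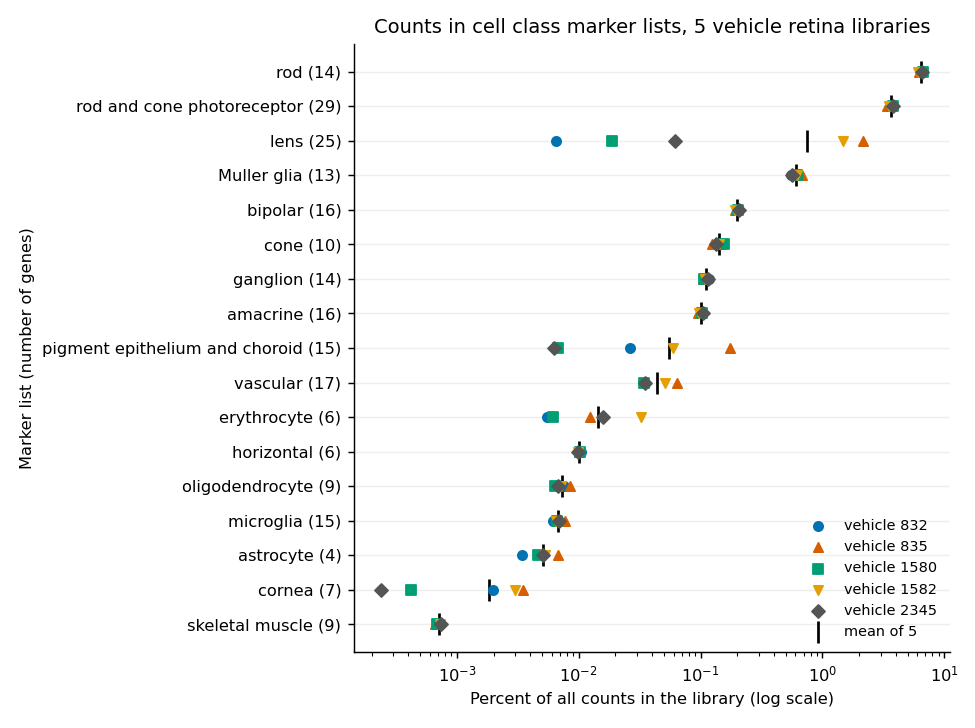
Share of all counts taken by each of 17 marker lists (number of genes in brackets) in each vehicle library, on a log scale, with points for libraries and a bar for the mean of 5. Rod and shared photoreceptor genes sit at 6.44% and 3.68% with little scatter, whereas the lens list runs from 0.00654% to 2.18% and the pigment epithelium list from 0.00624% to 0.174%.

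Cone genes were detected in full, 10 of 10, at a far lower level, 0.141% ± 0.0127 of counts (SD, n = 5). Arr3, the cone arrestin, had the highest mean of the list at 544 ± 123 TPM. The short-wavelength pigment Opn1sw stood at 471 ± 55.9 TPM and the middle-wavelength pigment Opn1mw at 250 ± 36.1 TPM. The intervals of 1 SD of Arr3 and Opn1sw overlap, and Arr3 was not above Opn1sw in every library. Opn1sw was above Opn1mw in every library, with a ratio of 1.89 ± 0.190. Cngb3, a subunit of the cone channel, was lowest at 11.7 ± 1.37 TPM.

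Rods and cones use separate genes for the same steps, which allows each step to be set side by side within a library. The transducin alpha subunits Gnat1 and Gnat2 differed 78.3 ± 3.41 fold in TPM (SD, n = 5), the largest of the 8 ratios, with 77.1, 78.0, 75.3, 76.8 and 84.1 in the 5 libraries. The channel subunits gave nearly the same ratio as each other, 57.8 ± 4.60 for Cnga1 over Cnga3 and 57.7 ± 3.96 for Cngb1 over Cngb3, and their library values overlap.

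Ratios were smaller at the other steps. The inhibitory phosphodiesterase subunits Pde6g and Pde6h differed 35.7 ± 2.55 fold and the catalytic subunits Pde6b and Pde6c 14.6 ± 0.439 fold. The rod list holds a further catalytic subunit, Pde6a, which the latter ratio leaves out, so it covers only part of the rod catalytic transcripts. For transducin beta the ratio of Gnb1 to Gnb3 was 8.16 ± 0.747, where Gnb1 is also made by most other cells and Gnb3 by ON bipolar cells. Gngt1 over Gngt2, the transducin gamma subunits, gave 7.28 ± 0.758. Sag over Arr3, the arrestins, gave the smallest ratio, 4.73 ± 1.09, with 4.82, 6.46, 3.46, 4.44 and 4.48, so that library 835 lay above the other 4. No test was made of these ratios, since 5 paired values cannot reach a two-sided exact p under 0.05.

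The ratios depend on the gene lengths by which counts were divided. With exon lengths from GENCODE M21, which are longer for many genes, the ratio of Cnga1 to Cnga3 was 28.3 and that of Cngb1 to Cngb3 38.2. Without length, in CPM, Sag exceeded Arr3 13.2 fold and Pde6g exceeded Pde6h 13.5 fold. In CPM the ratio of Cngb1 to Cngb3, 75.8, was above that of Gnat1 to Gnat2, 68.5. In every one of these versions each rod gene was above its cone partner in each pair.

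**Figure D2:**
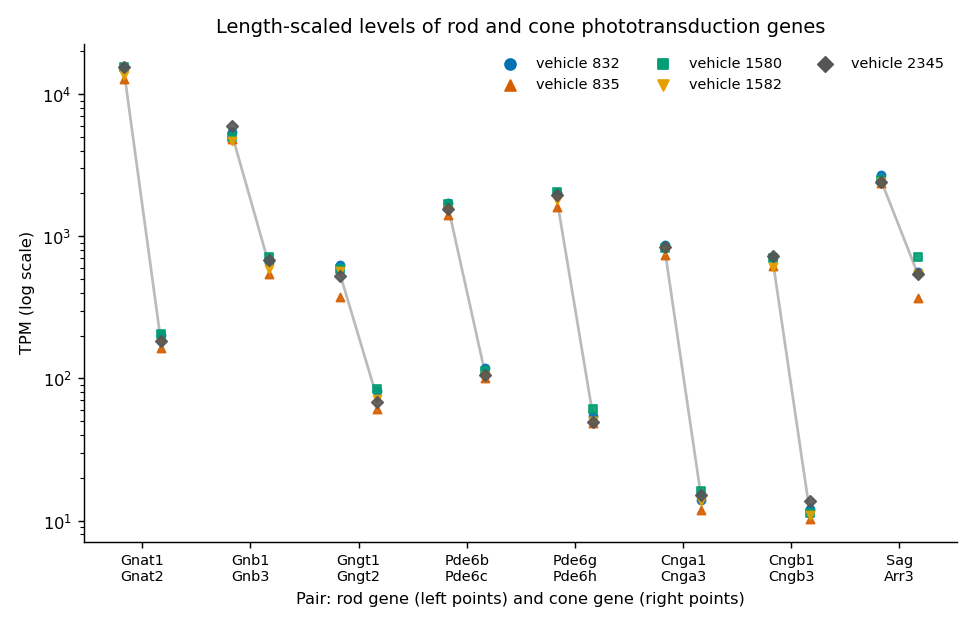
TPM on a log scale of the rod gene (left points) and the cone gene (right points) of 8 pairs with the same role, with 1 point per vehicle library and a grey line between the means. The lines are steep for the transducin alpha subunits, with a mean ratio of 78.3, and shallow for the arrestins, where the mean ratio was 4.73.

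Photoreceptor identity is set by transcription factors, of which CRX binds the sequence TAATCC or its reverse GGATTA before many photoreceptor genes. All 18 members of a list of retinal transcription factors were detected. Nrl led at 2022 ± 228 TPM, followed by Crx at 1146 ± 72.1 TPM and the rod factor Nr2e3 at 737 ± 155 TPM. Mef2d, a partner of CRX, stood at 381 ± 25.8 TPM, Neurod1 at 327 ± 62.9 TPM and Otx2, which acts upstream of Crx, at 294 ± 17.6 TPM. Factors of inner retinal neurons were lower, with Pax6 of amacrine and ganglion cells at 257 ± 21.2 TPM, Isl1 of bipolar and ganglion cells at 110 ± 7.48 TPM and Prox1 of horizontal cells at 76.4 ± 6.44 TPM. Pou4f1 of ganglion cells stood at 29.1 ± 3.42 TPM, Sox9 of Muller glia at 19.6 ± 4.45 TPM and Onecut2 of horizontal cells, the lowest, at 1.28 ± 0.154 TPM.

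The promoters of genes at these levels were read from RefSeq windows on GRCm38.p6, the assembly also called mm10, to show how often the CRX letters occur. A window was found for 39 of the 53 genes on the rod, cone and shared lists. Of these, 16 (41.0%, 95% Wilson interval 27.1% to 56.6%) held TAATCC or GGATTA within 300 bases around the start, as did 1371 of 17637 genes with a window (7.77%). The count was 4 of 9 rod genes, 11 of 23 shared genes and 1 of 7 cone genes. Of the genes with a mean of at least 1000 TPM, many of them on these lists, 12 of 46 with a window held it. A match is a run of letters and not a shown binding site. The 250 bases before the start of 5 photoreceptor genes are shown, 5′ to 3′ on the gene's strand, because each holds these letters close to the start, and were chosen after the search; capitals mark TAATCC or GGATTA.
Sag (chr1:87803430-87803679, plus strand): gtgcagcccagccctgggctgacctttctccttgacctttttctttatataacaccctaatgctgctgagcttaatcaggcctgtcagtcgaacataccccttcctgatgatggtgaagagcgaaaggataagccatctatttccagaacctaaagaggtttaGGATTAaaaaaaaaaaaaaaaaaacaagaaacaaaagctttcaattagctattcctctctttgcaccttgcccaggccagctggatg
Rbp3 (chr14:33953753-33954002, plus strand): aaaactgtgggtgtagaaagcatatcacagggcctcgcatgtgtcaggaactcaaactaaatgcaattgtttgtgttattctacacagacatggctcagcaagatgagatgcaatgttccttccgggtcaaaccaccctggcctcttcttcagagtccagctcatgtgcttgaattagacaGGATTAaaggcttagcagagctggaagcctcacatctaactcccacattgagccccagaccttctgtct
Guca1a (chr17:47400607-47400856, minus strand): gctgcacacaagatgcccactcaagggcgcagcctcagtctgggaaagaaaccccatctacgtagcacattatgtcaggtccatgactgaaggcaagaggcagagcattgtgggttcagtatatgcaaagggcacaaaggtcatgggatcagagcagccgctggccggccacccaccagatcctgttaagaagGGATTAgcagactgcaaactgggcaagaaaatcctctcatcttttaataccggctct
Crx (chr7:15879956-15880205, minus strand): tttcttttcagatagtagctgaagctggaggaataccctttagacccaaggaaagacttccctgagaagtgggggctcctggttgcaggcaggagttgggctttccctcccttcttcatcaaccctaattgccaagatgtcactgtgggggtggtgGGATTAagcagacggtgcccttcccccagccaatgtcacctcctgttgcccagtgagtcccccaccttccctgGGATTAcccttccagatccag
Gnat2 (chr3:108092816-108093065, plus strand): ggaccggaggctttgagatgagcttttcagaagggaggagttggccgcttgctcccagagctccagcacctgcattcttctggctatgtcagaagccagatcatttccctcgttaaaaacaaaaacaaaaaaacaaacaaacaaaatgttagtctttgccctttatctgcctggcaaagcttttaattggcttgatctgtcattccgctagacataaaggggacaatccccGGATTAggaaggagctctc

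In Sag the motif starts 87 bases before the start, in Rbp3 69 bases, in Guca1a 57 bases and in Gnat2 19 bases before it. Crx itself holds 2 copies, 94 and 21 bases before its start. The levels of these genes nevertheless covered a wide range, from 187 ± 17.1 TPM for Gnat2, the transducin alpha subunit of cones, to 3741 ± 326 TPM for Rbp3. Prph2, Rom1, Nrl, Tulp1, Pde6b and Nr2e3 have windows in the table without these letters in the 250 bases shown for them. The letters TGCTGA (reverse TCAGCA), the core bound by proteins of the MAF family, to which NRL of rods and MAF of the lens belong, were counted in the same windows. They occurred in 10 of 39 photoreceptor genes (25.6%), 13 of 23 lens genes (56.5%) and 3638 of 17637 genes (20.6%).

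The photoreceptor synapse releases glutamate at a ribbon. All 16 genes of a ribbon synapse list were detected, and the list took 0.539% ± 0.0324 of counts. The complexins Cplx4 and Cplx3, which regulate vesicle fusion, stood at 704 ± 82.7 and 363 ± 17.3 TPM. The vesicle protein Syp stood at 683 ± 64.8 TPM and the fusion protein Stx3 at 503 ± 31.7 TPM. The ribbon calcium channel was represented by its pore subunit Cacna1f at 307 ± 32.2 TPM, its accessory subunit Cacna2d4 at 335 ± 38.1 TPM and its regulator Cabp4 at 414 ± 57.5 TPM. Ctbp2, whose product RIBEYE forms the ribbon, stood at 275 ± 40.0 TPM, and the scaffold genes Bsn and Pclo at 49.5 ± 6.30 and 19.97 ± 1.71 TPM. Lrit1, Grm6, Rims2, Elfn1, Nrxn3 and Rabep1 lay between 53.0 and 199 TPM.

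Among vesicular transporters, which fill synaptic vesicles and so mark the transmitter a neuron uses, glutamate dominated. Slc17a7 (VGLUT1), used by photoreceptors and bipolar cells, stood at 2354 ± 235 TPM, with 2356, 2120, 2461, 2217 and 2538 CPM. The next was Slc32a1, the carrier for GABA and glycine, at 99.0 ± 7.64 TPM. Slc17a6 (VGLUT2) of ganglion cells stood at 42.8 ± 4.28 TPM, Slc17a8 (VGLUT3) at 14.0 ± 1.30 TPM, the acetylcholine carrier Slc18a3 at 13.7 ± 1.43 TPM and the monoamine carrier Slc18a2 at 5.83 ± 1.19 TPM. The values of Slc17a8 and Slc18a3 overlap.

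Inner retinal neurons were detected by complete marker lists at low levels. The 16 bipolar genes took 0.199% ± 0.00676 of counts. By their means they were led by the ON bipolar channel Trpm1 at 182 ± 25.8 TPM and its glutamate receptor Grm6 at 145 ± 23.6 TPM. The calcium-binding protein Cabp5 stood at 127 ± 19.3 TPM and the rod bipolar kinase Prkca at 126 ± 11.5 TPM. The intervals of 1 SD of Trpm1 and Grm6 overlap, as do those of Grm6, Cabp5 and Prkca. Nyx, a binding partner of the Trpm1 complex, was lowest at 14.8 ± 3.24 TPM.

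The 16 amacrine genes took 0.101% ± 0.00391 of counts. The GABA-making enzyme Gad1 led at 204 ± 17.6 TPM, before the glycine transporter Slc6a9 at 139 ± 9.27 TPM and the transcription factor Tfap2b at 116 ± 10.9 TPM. Th, the tyrosine hydroxylase of the sparse dopaminergic amacrine cells, was the lowest at 4.57 ± 0.536 TPM. The 6 horizontal cell genes took 0.0101% ± 0.000230 of counts, with Calb1, calbindin, highest at 41.2 ± 3.50 TPM.

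The 14 ganglion cell genes took 0.111% ± 0.00575 of counts. Thy1, a surface protein, led at 294 ± 16.2 TPM and measured 181, 168, 170, 170 and 175 CPM, one of the steadier marker genes. The neurofilament genes Nefl and Nefm stood at 230 ± 23.2 and 159 ± 15.1 TPM and gamma-synuclein, Sncg, at 175 ± 13.4 TPM. Exons of Nefl share more than 20% of their bases with another gene in GENCODE M21, so its value is uncertain. The lists used here hold 12 such genes in all, to which the same limit applies. Pou4f3 was lowest at 5.34 ± 1.48 TPM, and Opn4, the melanopsin of light-sensitive ganglion cells, stood at 7.45 ± 1.70 TPM; Opn4 was named after its value was seen. Lists of unequal size and genes of unequal length make these shares no estimate of cell numbers.

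GABA is made, carried and broken down by a small set of genes, and all 8 on the list were detected. Abat (ENSMUSG00000057880, chr16:8513429-8621568), the GABA transaminase that vigabatrin inhibits, measured 128, 140, 129, 130 and 130 CPM in these vehicle libraries, or 83.8 ± 2.07 TPM. The other 4 libraries lay within 128 to 130 CPM, below 835. The uptake transporter Slc6a11 (GAT3) stood at 186 ± 17.1 TPM. Synthesis was represented by Gad1 at 204 ± 17.6 TPM and Gad2 at 31.3 ± 2.69 TPM, and the step after Abat by Aldh5a1 at 19.996 ± 1.08 TPM. Slc6a13 (GAT2), a transporter of GABA and taurine, differed from the rest: it measured 8.64, 43.2, 17.8, 26.3 and 14.4 CPM, highest in 835 and next in 1582.

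Muller glia were represented by 13 of 13 genes and 0.607% ± 0.0502 of counts, or 0.579% ± 0.0316 without 835 and 1582. Glul (ENSMUSG00000026473, chr1:153899944-153909723), the glutamine synthetase that converts glutamate taken up by these cells, was the leading gene at 2991 ± 164 TPM and measured 2831, 2882, 3037, 2761 and 2626 CPM. The values of 835 and 1582 lay inside the range of the other 3. Apoe, a lipid carrier, stood at 1603 ± 302 TPM, Dkk3 at 950 ± 133 TPM and the retinoid-binding protein Rlbp1 at 442 ± 33.4 TPM. The markers differed in how steady they were. Vim, an intermediate filament, measured 117, 371, 131, 302 and 127 CPM, and Dapl1 measured 11.3, 75.1, 18.6, 62.5 and 15.7 CPM, both named after their values were seen. In each, 835 and 1582 stood above the other 3 libraries without overlap, as the lens list did and as 17.8% of the 14708 genes with a mean of at least 1 CPM did, and the part of lens tissue in these values was not tested. In all, 5 of the 13 genes had a coefficient of variation (CV, the SD as a percentage of the mean) over 20%, where 16.2% of the same 14708 genes did.

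Other cells of the retina and its vessels were close to the lower end. The 17 vascular genes took 0.0350%, 0.0643%, 0.0347%, 0.0508% and 0.0350% of counts. Flt1, a receptor of endothelial cells, led at 58.9 ± 2.10 TPM and differed little between libraries, while the smooth muscle gene Acta2 measured 6.02, 99.7, 3.49, 63.1 and 3.05 CPM. The 15 microglia genes took 0.00675% ± 0.000587 of counts, with 14 detected and complement C1qa at 16.8 ± 1.81 TPM. The 9 oligodendrocyte genes took 0.00725% ± 0.000772, led by myelin basic protein, Mbp, at 23.9 ± 2.02 TPM. The 4 astrocyte genes took 0.00505% ± 0.00121, or 0.00439% without 835 and 1582, with Gfap at 24.5 ± 7.56 TPM. The 9 skeletal muscle genes took 0.000707% ± 3.22e-05.

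Photoreceptors are known for high energy use and for glycolysis in the presence of oxygen. All 17 glycolysis genes were detected and took 1.83% ± 0.0779 of counts. Gapdh at 4841 ± 208 TPM, Aldoa at 4694 ± 373 TPM, Pkm at 4413 ± 261 TPM and Eno1 at 3502 ± 222 TPM led the list. Ldha, which makes lactate, stood at 1630 ± 205 TPM and Ldhb at 277 ± 8.23 TPM. Of the hexokinases, which start the pathway, Hk1 stood at 769 ± 65.8 TPM and Hk2, the form known in photoreceptors, at 418 ± 71.8 TPM. Hk2 measured 715, 734, 910, 943 and 603 CPM, so that its libraries ranged more widely than those of Hk1, which measured 1146, 1023, 1160, 1065 and 1168 CPM. The remaining members were, in descending order, Tpi1 at 1101 TPM, Pgk1 at 792 TPM, Gpi1 at 762 TPM, Eno2 at 679 TPM, Aldoc at 502 TPM, Pgam1 at 493 TPM, Pfkl at 412 TPM, Pfkp at 328 TPM and Pfkm at 179 TPM.

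The 13 protein-coding genes of the mitochondrial genome took 2.51%, 2.71%, 2.30%, 2.61% and 2.34% of counts, which was 6.07% of TPM. Their levels were split into separate groups. mt-Co1 stood at 14961 ± 624 TPM, mt-Cytb at 14148 ± 690 TPM and mt-Nd1 at 11113 ± 825 TPM, whereas mt-Co2 stood at 97.4 ± 7.32 TPM, mt-Co3 at 64.8 ± 4.35 TPM and mt-Atp6 at 69.2 ± 6.33 TPM. mt-Co1, mt-Co2 and mt-Co3 encode subunits of the same cytochrome oxidase. Mitochondrial genes can share reads with near-identical nuclear copies, and the sources used here do not say how the counting treated such reads. These low values, and with them the summed shares of the 13 genes, are therefore uncertain.

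Protein-coding genes took 98.3% ± 0.0873 of counts (SD, n = 5), and 14010 of 22026 were detected. LincRNA genes took 1.09% ± 0.0616 with 511 of 2769 detected, processed transcripts 0.230% ± 0.0119, antisense genes 0.201% ± 0.0157 and pseudogenes 0.148% ± 0.00280. Of the noncoding genes, A930011O12Rik, a lincRNA, measured 1938, 1298, 2136, 1834 and 1659 CPM, lowest in 835, and stood at 1280 ± 246 TPM, above many photoreceptor genes. Meg3, an imprinted lincRNA, measured 1801, 1654, 1758, 1665 and 1921 CPM. Vax2os was the leading antisense gene at 322 ± 37.9 CPM, Rian and Six3os1 the leading processed transcripts at 145 ± 15.0 and 141 ± 10.2 CPM, and Pisd-ps1 the leading pseudogene at 135 ± 31.6 CPM. Because the sources used here do not give the strand setting of the counting, reads of antisense genes and of their partners cannot be separated. The gene types of the table hold no ribosomal RNA and no microRNA class.

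Tissues next to the retina left transcripts in some libraries. Cryaa (ENSMUSG00000024041, chr17:31677933-31681722), alpha-A crystallin of the lens, measured 15.4, 10436, 45.2, 7175 and 232 CPM. In 835 this was 25057 TPM, above the 12816 TPM of Gnat1 in the same library. Cryaa was among the 20 most abundant genes by its mean of 8649 TPM over 5 libraries, but its mean without 835 and 1582 was 249 TPM. Crybb2, a beta crystallin, measured 6.36, 3569, 27.9, 2338 and 98.5 CPM. All 19 lens genes with a mean of at least 1 CPM had a CV over 20%, and their median CV was 136% over 5 libraries and 85.5% without 835 and 1582.

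Pigment epithelium and choroid transcripts followed a different order. The 15-gene list took 0.0263%, 0.174%, 0.00678%, 0.0599% and 0.00624% of counts. Dct, an enzyme of melanin synthesis, measured 29.0, 661, 8.72, 227 and 3.94 CPM, highest in 835 and next in 1582. Rgr, an opsin of the pigment epithelium, measured 59.7, 101, 4.75, 6.17 and 7.02 CPM and Ttr, transthyretin, 68.4, 110, 6.22, 7.46 and 8.88 CPM, so that for these 832 and not 1582 was next to 835. Rpe65, the isomerase of the visual cycle, measured 16.2, 33.1, 0.615, 1.44 and 1.33 CPM and followed Rgr. Rrh, peropsin, differed from its list, with 15.0, 15.2, 13.8, 14.3 and 14.1 CPM. Rgr, Rpe65 and Rrh were named after their values were seen.

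Blood gave a further order. Hba-a1, an alpha globin, measured 23.3, 54.6, 26.9, 141 and 70.9 CPM, highest in 1582, and the 6 erythrocyte genes together took 0.00549% to 0.0326% of counts. Hba-a1 and Hba-a2 are near-identical copies, so their separate values are uncertain. Cornea transcripts were scarce, at 0.00198%, 0.00350%, 0.000424%, 0.00298% and 0.000239% of counts for the 7 genes together, highest in 835 and next in 1582. Krt15, a keratin of surface epithelia, differed from this sum, with 7.17, 4.34, 0.351, 0.569 and 0.166 CPM, highest in 832.

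When the lens list was left out of the total, an alternative added after the data were seen, the rod list took 6.49% of counts in place of 6.44%, and the cone list 0.142% in place of 0.141%.

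Across the 14708 genes with a mean of at least 1 CPM the median CV was 9.28%, where counting noise alone gives a median of 2.99%. Of these genes 2381 (16.2%) had a CV over 20% and 542 (3.69%) a CV over 50%. Without 835 and 1582 the median CV was 5.97%, and 879 of 14576 genes (6.03%) were over 20%. The steadiest lists were GABA metabolism, with a median CV of 5.53%, rod genes with 6.14%, amacrine genes with 6.24% and glycolysis with 6.50%. Bipolar genes had 12.5%, Muller glia 14.5% and microglia 16.7%. In the 3 lens-poor libraries these medians were 2.12%, 3.87%, 4.36% and 3.41% for the steadiest and 5.87%, 8.33% and 11.7% for the others. Genes with 1 to 10 CPM had a median CV of 16.1% and genes with 100 to 1000 CPM one of 6.24%.

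**Figure D3:**
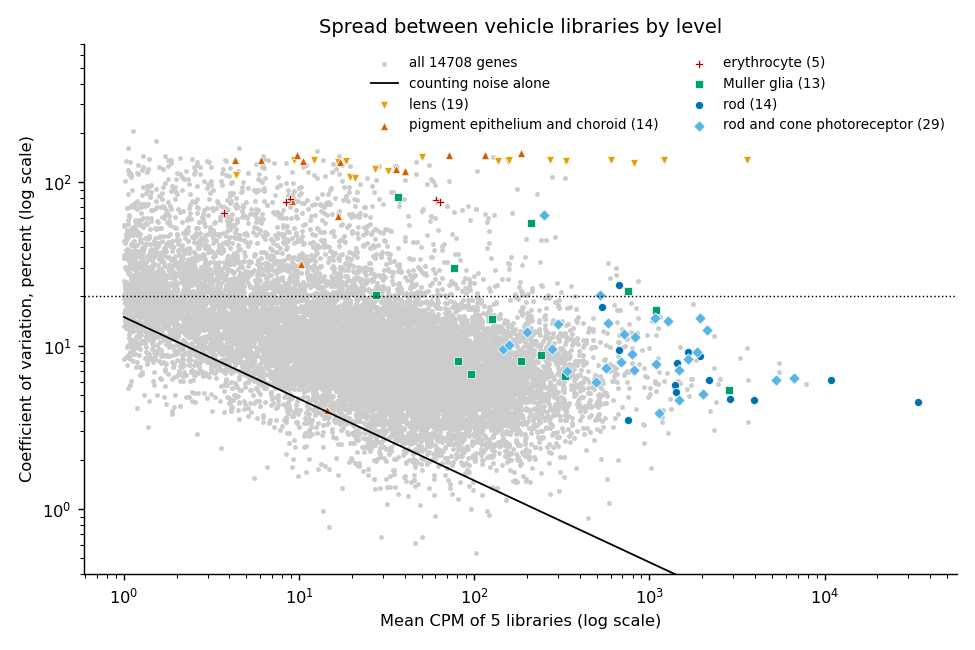
CV over 5 vehicle libraries against mean CPM, both on log scales, for 14708 genes (grey) and members of 6 lists with a mean of at least 1 CPM, with the CV from counting noise alone (line) and 20% (dotted). The lens genes have a median CV of 136%, whereas 12 of 14 rod genes lie between 3.49% and 9.46%.

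Where the spread was large, it mostly lay in 835. Of the 542 genes with a CV over 50%, 467 (86.2%) were highest in 835 and 40 in 1582, where 30.2% of all 14708 genes were highest in 835. In 451 (83.2%) both libraries lay above the other 3, where 17.8% of all genes did so. Leaving out 835 alone lowered the median CV from 9.28% to 6.58% and the number of genes over 20% from 2381 to 1362. Between pairs of libraries, the median CV was 8.29% to 10.4% for pairs with 835 and 4.56% to 6.40% for all others, those with 1582 included. All pairs differed beyond counting noise, with chi-square per degree of freedom from 11.4 to 139, so no 2 of them were treated as 1 library deposited again. Repeat preparations from 1 animal would also differ beyond counting noise, and cannot be told apart from separate animals in this way.

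Besides lens and pigment genes, several retinal genes set 835 apart. Samd7, a repressor that silences unsuitable genes in rods, measured 170, 531, 182, 211 and 157 CPM. Nr2e3, which represses cone genes in rods, measured 610, 952, 634, 599 and 566 CPM. In both, 835 was above all other libraries, while 1582 was near or within the range of the remaining 3. In the opposite direction Neurod1, a transcription factor that maintains photoreceptors, measured 334, 210, 341, 309 and 311 CPM and Gngt1, the rod transducin gamma subunit, 615, 389, 586, 592 and 510 CPM.

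The same held for some other photoreceptor genes. Arr3, the cone arrestin, measured 315, 217, 405, 318 and 299 CPM, and Kcnv2, a potassium channel subunit of photoreceptors, 597, 351, 544, 496 and 619 CPM. Both were lowest in 835. The synaptic adhesion gene Elfn1 measured 138, 88.4, 143, 128 and 144 CPM, and Ctbp2 went the other way with 311, 436, 328, 317 and 290 CPM. Over 1.5-fold above the mean of the other 4 libraries in 835 lay 1 of 14 rod, 0 of 10 cone and 1 of 29 shared genes, and that far below it 0, 1 and 1. Over all 14708 genes, 1229 lay above and 687 below by that factor, 13.0% in either direction. The counts in these lists are too small to tell their share from that of all genes. Smaller shifts downward were common: 7 of 14 rod, 6 of 10 cone and 19 of 29 shared genes were lowest in 835, where 39.2% of all genes were. The median ratio of 835 to the mean of the other 4 was 0.936 for rod, 0.871 for cone and 0.887 for shared genes, and 0.977 over all genes. Samd7 and Kcnv2 were named after their values were seen.

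Genes outside the lists, also named after their values were seen, stood apart in 835 as well. The clock genes Per1 and Ciart measured 167, 424, 183, 209 and 212 CPM and 20.3, 59.2, 22.8, 30.4 and 23.2 CPM. Klf9, a transcription factor, measured 135, 225, 137, 153 and 129 CPM, Nfkbia, the inhibitor of NF-kB, 19.97, 49.1, 22.9, 24.0 and 20.4 CPM, and Slc7a1, a transporter of basic amino acids, 40.6, 110, 30.5, 34.5 and 35.999 CPM. In each of these genes 835 lay above the other 4 libraries. Those ranged from 20.3 to 30.4 CPM for Ciart and from 30.5 to 40.6 CPM for Slc7a1. Cdkn1a, an inhibitor of the cell cycle and, by the rule for named genes, the gene with the largest CV (154%) among genes of at least 10 CPM, measured 4.33, 47.7, 3.62, 5.54 and 2.30 CPM. Lens and pigment transcripts were also highest in 835, and their part in these values was not tested.

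**Figure D4:**
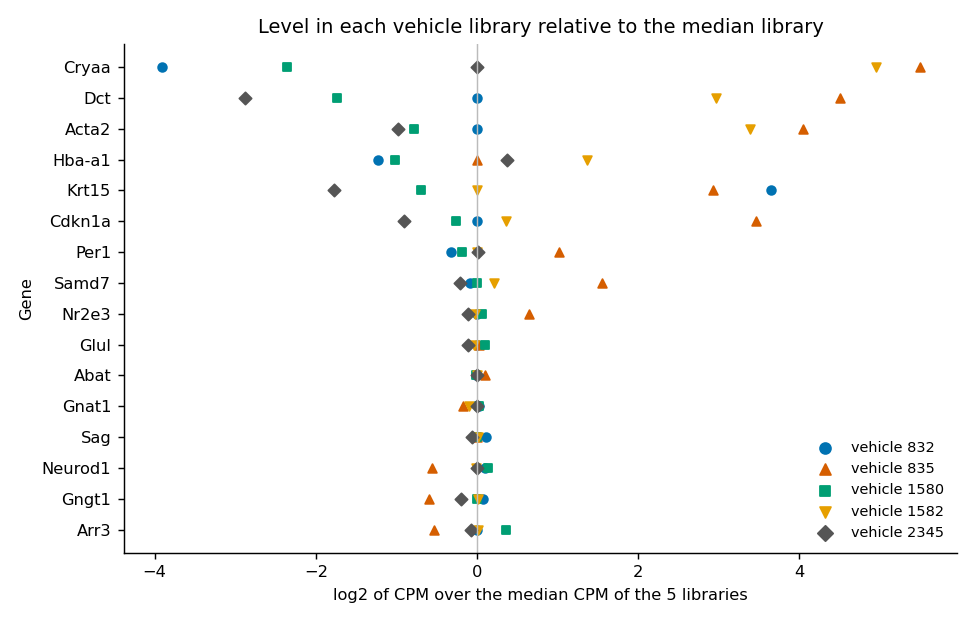
CPM in each vehicle library relative to the median of the 5 libraries, on a log2 scale, for 16 genes of lens, pigment cells, smooth muscle, blood, cornea and retina. Cryaa and Dct spread over several log2 units and Samd7, Per1 and Cdkn1a are high in 835, whereas Sag, Gnat1, Glul and Abat stay near 0.

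At the other end of the range, the 10 genes with the smallest CV had values of 0.536% to 0.979%. Tusc3, a subunit of the complex that adds sugars to new proteins, led at 102 ± 0.548 CPM, followed by Entpd5 at 46.1 ± 0.287 CPM, Sec23b, a coat protein of vesicles leaving the endoplasmic reticulum, at 50.3 ± 0.338 CPM and Gnas, a G protein alpha subunit, at 29.5 ± 0.200 CPM. Msto1, Prkar1a, Rbbp4, Vamp1 and Mmp2 were also among them. For 9 of the 10 the CV was under that of counting noise alone, so their order is not resolved at this depth. The other genes of largest CV after Cdkn1a were Dct, Pmel, Tyrp1, Mlph and Gpnmb of pigment cells and Mip, Cryaa, Cryba2 and Crybb2 of the lens, with CVs from 137% to 151%.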

How the data were processed

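RNA was extracted from frozen retinas with Qiazol and sequenced as Illumina libraries, per the labels' protocols. The authors deposited raw read counts for each Ensembl gene. The submitters' processing notes list genome build mm10 and the tools HTSeq 0.6.1, DESeq2 and edgeR 3.16.5. Aligner, annotation release and strandedness: not given in the sources used here. The gene lengths were deposited with the counts, without a statement of how they were measured. Left out was 1 count column whose name fits no sample label.

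Counts were divided by the library total (CPM) or by length and then scaled to a sum of 1000000 (TPM). The CV was taken over libraries for genes with a mean CPM of at least 1. No groups were compared. Sets of 5 values were screened for 1 outlying library by Dixon's gap ratio, and pairs of libraries were set against counting noise by chi-square. The spread and TPM steps were tested on simulated data. GENCODE M21 held 34490 genes (97.8%); its exon length was 1.26 times the deposited one in the median. Names standing on several rows took the row with most counts.

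The members and lists were chosen with earlier results of these data known. Genes were named by a rule: the 20 highest TPM, the 10 highest CPM, the 2 highest CPM per gene type, the 4 highest and the lowest of each cell class list, rod and cone pairs, members of the 5 pathway lists, the 10 largest and 10 smallest CVs, and the markers Sag, Gnat1, Glul and Abat. Further list members were named after their values were seen, and some genes that the rule selects are not reported here. Alternatives covered the denominator, gene length, filters, TMM and DESeq2 1.42.0 size factors, edgeR 4.0.16 (R 4.3.3) and leaving out libraries.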

Additional observations from a re-analysis of the deposited data

Results flagged for a closer look

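Among 217 sets of 5 values, 14 had 1 library well outside the range of its fellows. For independent sets not chosen by their spread, about 1 set in 20, or 10.85 of them, would do so by chance. These sets share the same 5 libraries, and some genes among them were named for their CV. The number expected is therefore only a rough guide. Library 835 was the outlying library in 11 of the 14, high in 6 and low in 5.

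Library 835 was high for the share of protein-coding counts (98.46%, others 98.24% to 98.29%) and low for lincRNA genes (0.984%, others 1.11% to 1.14%) and processed transcripts (0.210%, others 0.232% to 0.239%). Among genes of photoreceptors and their synapses, 835 was high for Nr2e3 (952 CPM, others 566 to 634) and Ctbp2 (436 CPM, others 290 to 328). It was low for Neurod1 (210 CPM, others 309 to 341) and Elfn1 (88.4 CPM, others 128 to 144).

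It was also high for Cdkn1a, the cell cycle inhibitor (47.7 CPM, others 2.30 to 5.54), for Abat, the GABA transaminase (140 CPM, others 128 to 130), and for Cnp, a myelin enzyme (19.8 CPM, others 15.6 to 16.8). It was low for the glycolytic enzyme Aldoa (2210 CPM, others 2474 to 2569). Lens and pigment epithelium transcripts were highest in the same library, and their part in these values was not tested.

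Library 1580 was high for Isl1, a transcription factor of inner retinal neurons (104 CPM, others 90.0 to 92.6), and for Slc18a3, the vesicular acetylcholine transporter of starburst amacrine cells (13.0 CPM, others 10.5 to 11.1). Library 2345 was high for Rbbp4, a histone-binding protein and 1 of the 10 genes of smallest CV (123 CPM, others 119.8 to 120.3). For 9 of those 10 genes the CV was under that of counting noise alone.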

How the results depend on the processing

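The number of genes detected was 14708 by a mean CPM of at least 1, 14917 by a TPM of at least 1 in each of 5 libraries, 16083 with M21 lengths and 20801 by a mean TPM of at least 0.1, in place of 15874. Without 835 and 1582 the lens list fell from 0.748% to 0.0288% of counts (0.391% without 835 alone) and the pigment epithelium and choroid list from 0.0547% to 0.0131% (0.0248% without 835 alone). Over protein-coding counts outside the mitochondrial genome the share was 6.72% for the rod, 0.208% for the bipolar and 0.105% for the amacrine list. As shares of TPM the lists took 6.18% (rod), 0.184% (cone), 0.136% (bipolar), 0.0791% (amacrine), 0.129% (ganglion), 0.702% (Muller glia) and 1.98% (lens).

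The ratios of rod to cone genes moved most with length. Without length they were 68.5 (Gnat1), 13.9 (Gnb1), 13.7 (Gngt1), 20.1 (Pde6b), 13.5 (Pde6g), 45.3 (Cnga1), 75.8 (Cngb1) and 13.2 (Sag), and Opn1sw over Opn1mw was 3.70. With GENCODE M21 exon lengths, an alternative added after the data were seen, they were 67.8 (Gnat1), 11.9 (Pde6b), 45.8 (Pde6g), 28.3 (Cnga1), 38.2 (Cngb1), 3.50 (Sag) and 2.26 (Opn1sw over Opn1mw).

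The number of genes with a CV over 20% was 12118 with no filter other than a count above 0 (median CV 18.6%), 734 from a mean CPM of 10 and 3577 by edgeR's biological CV (median 14.1%). Without 835 and 1582 it was 879 (median CV 5.97%), and leaving out each library in turn gave 1362 (without 835) to 2699 genes and a median CV of 6.58% to 9.76%. With only the bases before the start, 7.08% of all genes held TAATCC. For the genes named, mean TPM moved by more than 1 SD in 197 of 329 genes with M21 lengths and in 109 over protein-coding genes outside the mitochondrial genome. Of the 310 named genes with a mean of at least 1 TPM, the mean moved over 1.5-fold in 38 without 835, 2 without 832 (Krt15 and Krt5), 2 without 1582 (Aldh3a1 among them), 1 without 1580 (Gm9522) and 1 without 2345 (Prss56). Without 835 mean TPM went from 19.1 to 6.13 for Cdkn1a, from 235 to 86.3 for Dct, from 155 to 61.0 for Pmel and from 75.1 to 30.4 for Tyrp1.

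The deposited gene lengths, not the depth, limit comparisons between genes. Depth limits scarce genes: from 1 to 10 CPM, counting noise alone gave a median CV of 7.76%. For genes whose SDs overlap the means alone fix no order, and their order within each library was in general not compared.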

Other observations

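Some genes differed between the 3 libraries without much lens, and were named after their values were seen. In library 2345 Prss56, a protease of Muller glia, measured 22.5 CPM against 4.57 to 6.90 CPM in the other 4, Edn2, an endothelin, 19.997 CPM against 3.84 to 12.6 CPM, Fgf2, a growth factor, 5.19 CPM against 2.08 to 2.84 CPM and Gfap, a glial filament, 31.2 CPM against 15.4 to 24.7 CPM. In library 832 Gsto1, a glutathione transferase, measured 67.7 CPM against 15.2 to 32.5 CPM. Of these libraries, 832 also held more Rgr, Ttr and Krt15 than 1580 and 2345.

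Further genes were high in both 835 and 1582, as the lens list was and as 17.8% of the 14708 genes with a mean of at least 1 CPM were. Serpina3n, a protease inhibitor, measured 70.9 and 41.3 CPM against 5.12 to 10.8 CPM in the other 3. Gpx3, a secreted glutathione peroxidase, measured 377 and 485 CPM against 38.2 to 136 CPM, and the nuclear noncoding RNA Neat1 113 and 173 CPM against 38.6 to 57.1 CPM. For Gpx3 and Neat1 the order was the reverse of the lens list, with 1582 above 835. Malat1, another nuclear RNA, measured 663, 763, 514, 632 and 691 CPM in 832, 835, 1580, 1582 and 2345, with no such separation. Egr1, an immediate early gene, measured 23.1, 149, 44.4, 63.6 and 102 CPM. Mt2, a metallothionein, measured 113 CPM in 835 against 8.26 to 35.3 CPM elsewhere, and the photoreceptor dopamine receptor gene Drd4 measured 312 CPM against 225 to 261 CPM.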
